A study of Mus musculus with 9 samples.

Results

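The genes described here encode the proteasome, chosen by name: every gene of the array's annotation whose symbol begins Psma to Psmg followed by a digit, unless it had a probe in a deposited table of 45 probes picked by the study. The rule matched 45 of 16593 named genes, represented by 67 of 25697 probes, and none of them was in the 45-probe table. Expression was measured on 9 Illumina mouse Ref-8 beadchips in mast cells grown from bone marrow. There were 3 arrays of AhR null, 3 of AhR-d and 3 of control cells. All mice were C57BL/6J; AhR null mice lack the aryl hydrocarbon receptor (AhR), a ligand-activated transcription factor, and AhR-d mice carry the d allele, known for a receptor that binds its ligands less tightly. The labels give no age, and do not say whether animals were pooled. Every group was cultured for 4 weeks in 30% conditioned medium of WEHI-3, a leukaemia line that secretes IL-3, was then purified by removing other cells on magnetic beads, and spent 4 h without cytokines before RNA was taken. Each of the 3 culture batches supplied 1 array of each genotype. Whether the batches came from separate animals is not stated, and the p-values therefore cover only how far these 9 cultures differ, which may be technical.

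The proteasome degrades proteins tagged with ubiquitin. Its 20S core is a barrel of alpha and beta rings in which 3 beta subunits, encoded by Psmb5, Psmb6 and Psmb7, cut peptide bonds, and a 19S regulatory particle of ATPase and non-ATPase subunits recognises, unfolds and feeds the substrate. In cells of the immune system, and in other cells exposed to interferon, Psmb8, Psmb9 and Psmb10 replace the catalytic subunits to form the immunoproteasome, and the PA28 activator of Psme1 and Psme2 caps the core; this form is known for generating peptides that are presented on class I molecules.

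Mean raw signal ran from 523 to 636 on AhR null, 338 to 684 on AhR-d and 324 to 527 on control arrays, and 7901 to 9733 probes per array were detected at p under 0.01 against the negative-control beads. The only Ahr probe was detected on 0 of 9 arrays, so the labels could not be checked on the gene itself. Ahrr, a direct AhR target, was detected on 0 of 3 AhR null, 3 of 3 AhR-d and 3 of 3 control arrays. All 8 mast cell markers on the array, Fcer1a, Cpa3 and Cma1 among them, were detected on every array, and none of 6 lymphocyte markers was detected on any. The mast cell markers had summed raw signal of 181253 to 212845 in AhR null, 114725 to 209270 in AhR-d and 122521 to 175300 in control cells. Such raw sums, here and below, also carry each array's brightness. Neutrophil markers differed between AhR null and control cells: 5 of 10 were detected on all 3 AhR null arrays and 0 of 10 on any control array. AhR-d cultures differed among themselves, with 0, 8 and 7 of 10 detected on replicates 1, 2 and 3. Summed raw signal of these markers was 3397 to 3790 in AhR null, 1976 to 5590 in AhR-d and 1207 to 1776 in control cells. The 9 monocyte and macrophage markers summed to 5324 to 9475 in AhR null, 4544 to 14237 in AhR-d and 1343 to 3069 in control cells. The 3 basophil markers summed to 3038 to 4881 in AhR null, 1642 to 3749 in AhR-d and 674 to 1524 in control cells. The 6 erythroid and megakaryocyte markers summed to 4900 to 10905 in AhR null, 2314 to 7277 in AhR-d and 1790 to 4892 in control cells. By normalised log2 level, all AhR null arrays lay above all control arrays for 1 of 2 basophil markers detected on at least 3 arrays. This held for 2 of 5 such erythroid and megakaryocyte markers, and for 16.9% of all features tested. The 7 dendritic cell and class II markers summed to 1658 to 1744 in AhR null, 1395 to 1859 in AhR-d and 929 to 1632 in control cells. In bulk RNA, fewer cells of a type and less RNA per cell cannot be told apart.

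Of the 45 genes, 43 passed the filter of detection on at least 3 of 9 arrays, and 39 were detected on all 9. Psma1 and Psma6, both of the alpha ring, were not detected on any array, with lowest detection p-values of 0.132 and 0.361, so the alpha ring is described by 5 of its 7 genes. The matched symbols included 2 that encode no subunit: Psmc3ip, a partner of PSMC3 known from meiotic recombination, and Psme3ip1, which encodes a protein that binds PSME3. Levels below are normalised log2 intensities, in which 1 unit is a doubling, and are compared only within a probe. A change was called when the adjusted p was under 0.05 in a limma fit of all 7449 features tested.

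By this fit at most 1 of the 43 genes was called in each comparison; with batch as a block it was up to 3, as given below. In AhR null against control cells, 1 of 43 genes was called, the immunoproteasome gene Psmb9, which rose; over all features 12.4% were called, 6.56% as higher and 5.8% as lower. At an unadjusted p under 0.05 there were 5 of 43, Psmb9 and Psmb4 higher and Psma5, Psmd11 and Psme3ip1 lower, against 28.3% of all features; the names were taken after the values were seen. The median log2 difference was 0.10 over the 43 genes and -0.03 over all features, and 25 of the 43 were positive, against 47.6% of features. The median over the genes was -0.05 in batch 1, 0.02 in batch 2 and 0.10 in batch 3, and it was -0.02 with 19 of 43 positive when control replicate 3 was left out. That array stood apart for these genes: it was the highest or lowest of the 9 for 24 of 43, against 39.0% of all features.

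In AhR-d against control cells 0 of 43 were called by limma, against 0.336% of all features, and 5 of 43 had an unadjusted p under 0.05, against 7.53%. Those were Psmb4 (0.34), Psmd14 (0.48), which encodes the deubiquitinase of the 19S lid, and Psmd8 (0.50), a lid subunit, among positive differences, and Psma3 (-0.30) and Psmc6 (-0.53) among negative ones, with adjusted p from 0.573 to 0.648; they too are named after their values were seen. Their median log2 difference was -0.002, with 21 of 43 positive, beside -0.01 over all features, of which 48% were positive. With batch as a block 0 of 43 were called, against 1.58%. In AhR null against AhR-d cells 0 of 43 were called, against 2.48%, and 1, Psmb9, had an unadjusted p under 0.05, against 16.7%. The median was 0.04 with 25 of 43 positive, beside -0.004 over all features, of which 49.4% were positive. The comparisons share arrays and are not independent of each other.

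The replicates bounded most of these differences. In AhR null against control cells the 95% interval of the difference lay within 2-fold in either direction for 36 of 43 genes, or 83.7%, against 57.5% of all features; the median SE was 0.22 log2 for the proteasome genes and 0.26 over all features. It lay within 2-fold for 39 of 43 in AhR-d against control and for 37 of 43 in AhR null against AhR-d. The 7 genes whose interval reached 2-fold in AhR null against control were Psmb9, Psmb5, Psmb8, Psmd1, Psmd2, Psmd11 and Psme3ip1. The genes of smallest and largest range are named after their values were seen. The steadiest over the 9 arrays was Psmc2, a 19S ATPase, whose level stayed between 11.84 and 11.99. Psmd1, which encodes the large scaffold subunit of the 19S base, spanned 4.74 to 6.92 and was detected on 7 of 9 arrays.

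How the arrays were scaled set the sign of many of these small differences, so the directions given below hold for the normalisation used here. In the values as deposited, which carry each array's brightness, 41 of 43 proteasome genes were positive in AhR null against control, with a median of 0.46, and 84.8% of all features were positive with a median of 0.29. After background correction and scaling to the median of all probes, 42 of 43 were positive, with a median of 0.65 beside 0.53 over all features. Relative to the median of all features, the proteasome median was 0.13 in the normalisation used here, 0.17 in the deposited values and 0.12 after median scaling. Psmb9 was called in each of these, at 1.27 (adjusted p = 0.0124) in the deposited values and 1.56 (adjusted p = 0.0123) after median scaling.

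**Figure D1:**
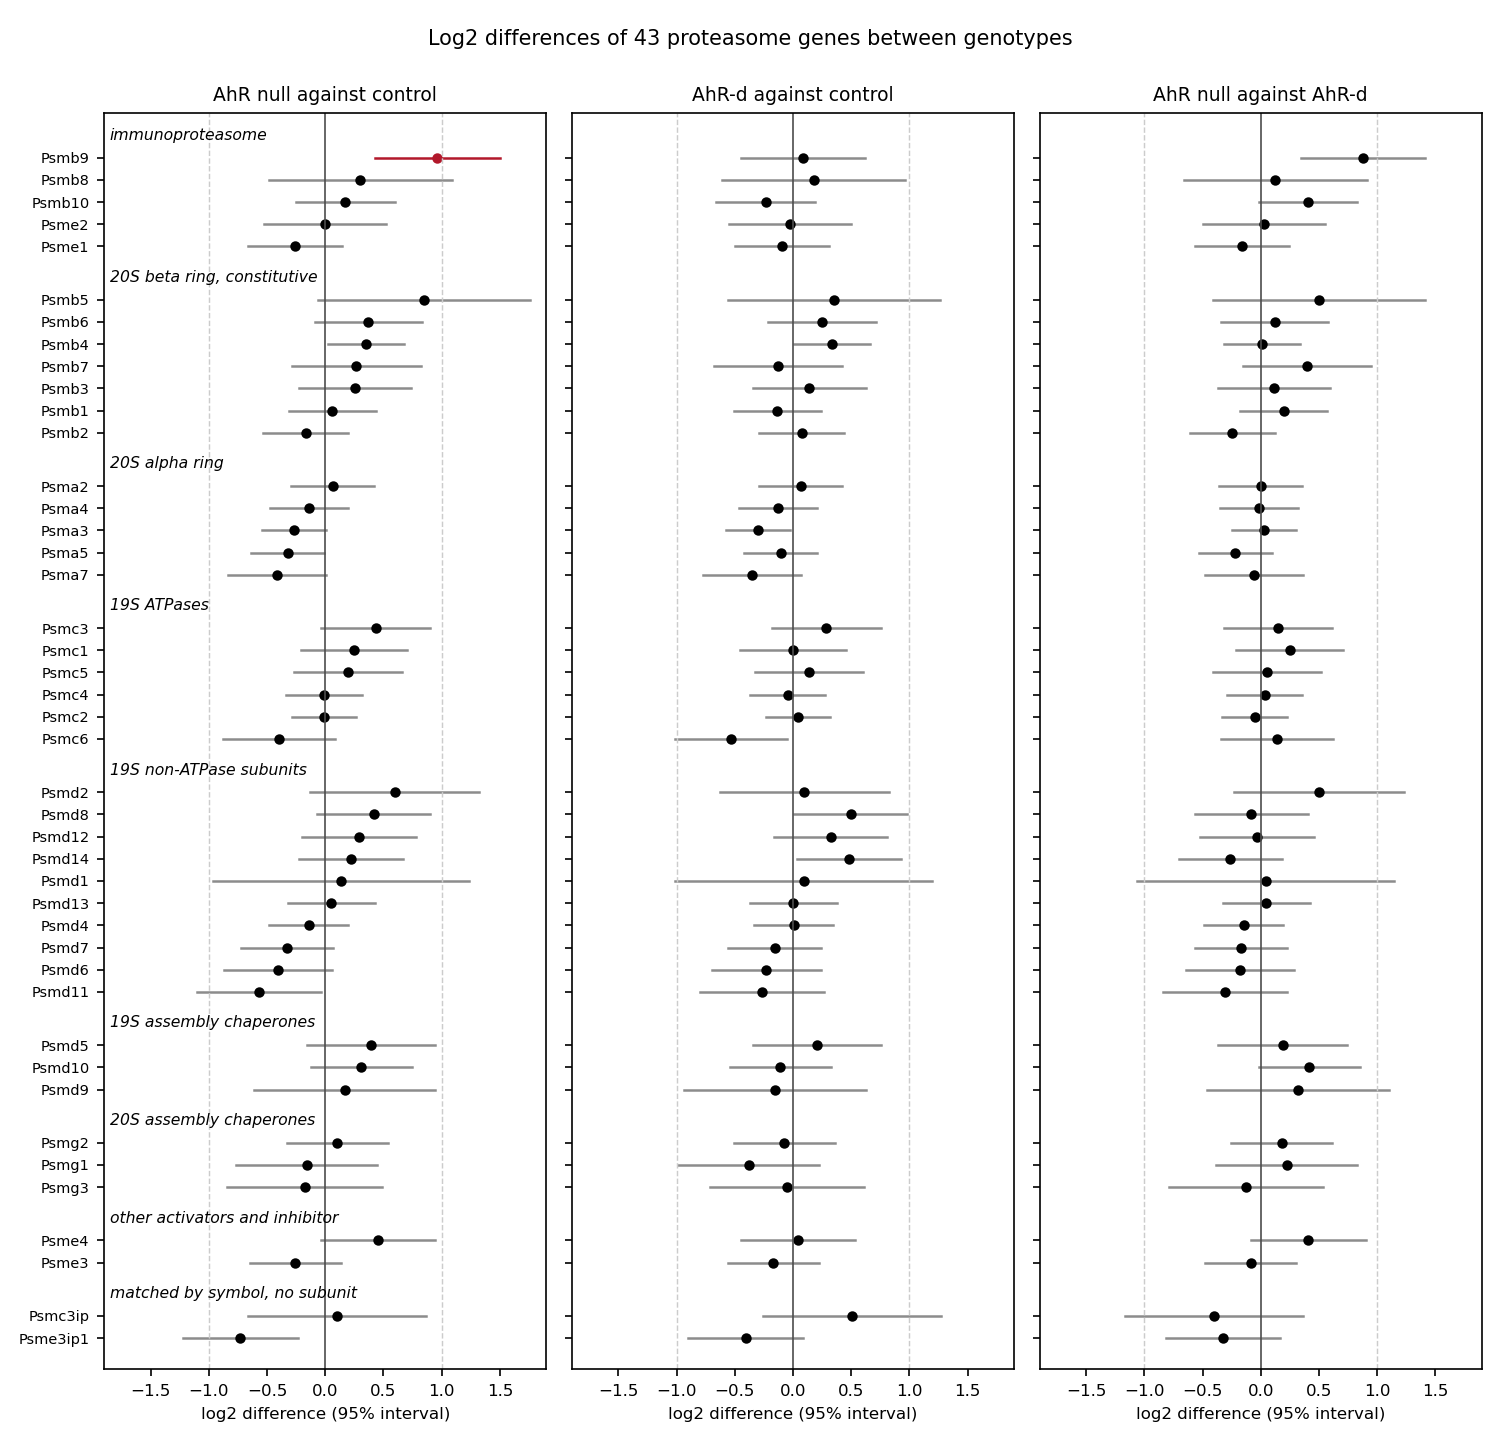
Log2 differences of 43 proteasome genes in AhR null against control, AhR-d against control and AhR null against AhR-d cells (x axis, log2; points with 95% intervals, n = 3 arrays per genotype), grouped by role. Psmb9 in AhR null against control, in red, is the only call at an adjusted p under 0.05, and most intervals lie inside the dashed lines that mark 2-fold. Psmd2 was not detected on any control array.

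Among immunoproteasome genes only Psmb9, the inducible beta1 subunit, passed the test. Psmb9 was read from a single probe, so its call could not be checked on another. Its level was 10.31, 10.42 and 10.20 on AhR null arrays, 9.45, 9.72 and 9.13 on AhR-d arrays, and 8.74, 9.81 and 9.49 on control arrays. All 3 AhR null arrays lay above all 6 others, while AhR-d and control arrays overlapped. The log2 difference of AhR null from control was 0.96 (SE 0.25, 95% interval 0.43 to 1.50, adjusted p = 0.022), and it was 1.57, 0.61 and 0.71 within batches 1, 2 and 3. AhR-d differed from control by 0.08 (SE 0.25, adjusted p = 0.972). Against AhR-d, AhR null was 0.88 higher (SE 0.25, adjusted p = 0.092), with 0.86, 0.70 and 1.08 within batches, and this difference was called with batch as a block (adjusted p = 0.0168).

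The call on Psmb9 against control was lost without AhR null replicate 1 (0.97, adjusted p = 0.0702), AhR null replicate 2 (0.91, adjusted p = 0.0804) or control replicate 1 (0.66, adjusted p = 0.0882), and with array brightness as a covariate (0.56, adjusted p = 0.334). Brightness was higher on AhR null than on control arrays on average, and its part in the result was not tested. Neutrophil and monocyte marker signal, given above, was also higher in AhR null than in control cells, and its part in the result was not tested.

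Psmb9 lies on mouse chromosome 17 in the class II region of the major histocompatibility complex, between H2-DMb1 and Tap1, and Psmb8 follows between Tap1 and Tap2. Promoter sequences, from 250 bases before to 50 after the start of transcription, came from RefSeq on GRCm38.p6, where 39 of the 45 genes had an entry; the array files name no build. The window of Psmb9 was chr17:34187281-34187580 (minus strand), and it shares 275 bases with that of Tap1 at chr17:34187306-34187605 (plus strand), which is transcribed the other way. The windows of Psmb9, of its neighbour Psmb8 at chr17:34197945-34198244 (plus strand), which was not called, and of Pomp at chr5:147860378-147860677 (plus strand) and B2m at chr2:122147437-122147736 (plus strand), called genes outside the symbol rule that are described below, are shown to let the reader set called beside uncalled genes. They run 5′ to 3′ on the gene's strand, and capitals mark matches on either strand to GCGTG, the core bound by AhR with its partner ARNT, to the core of interferon-stimulated response elements (GAAA, any 2 bases, GAAA), or to TTCNNNGAA, the form of a STAT site.
Psmb9: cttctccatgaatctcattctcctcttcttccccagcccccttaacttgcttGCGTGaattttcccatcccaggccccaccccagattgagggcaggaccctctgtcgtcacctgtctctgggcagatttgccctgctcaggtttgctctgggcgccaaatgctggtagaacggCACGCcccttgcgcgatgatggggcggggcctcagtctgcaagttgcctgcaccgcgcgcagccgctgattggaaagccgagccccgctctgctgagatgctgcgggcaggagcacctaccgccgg
Psmb8: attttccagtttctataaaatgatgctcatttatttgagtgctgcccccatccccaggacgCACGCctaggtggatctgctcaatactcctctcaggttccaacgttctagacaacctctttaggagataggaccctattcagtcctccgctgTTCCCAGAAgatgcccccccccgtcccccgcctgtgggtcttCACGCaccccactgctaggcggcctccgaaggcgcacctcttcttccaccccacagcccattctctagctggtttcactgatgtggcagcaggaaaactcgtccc
Pomp: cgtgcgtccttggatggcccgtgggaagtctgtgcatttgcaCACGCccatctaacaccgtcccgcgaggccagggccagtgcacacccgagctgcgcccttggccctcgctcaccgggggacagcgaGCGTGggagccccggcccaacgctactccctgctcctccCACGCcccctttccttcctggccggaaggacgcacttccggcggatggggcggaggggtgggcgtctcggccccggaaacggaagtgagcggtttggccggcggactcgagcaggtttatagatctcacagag
B2m: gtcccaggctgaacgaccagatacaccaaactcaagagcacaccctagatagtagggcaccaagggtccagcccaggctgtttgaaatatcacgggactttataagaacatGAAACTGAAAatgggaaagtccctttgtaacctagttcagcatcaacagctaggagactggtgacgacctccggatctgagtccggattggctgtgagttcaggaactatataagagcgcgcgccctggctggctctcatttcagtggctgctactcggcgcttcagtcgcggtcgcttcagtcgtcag

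GCGTG occurred 2 times in the Psmb9 window, 2 times in that of Psmb8, 3 times in that of Pomp and 0 times in that of B2m. At least 1 match was found in 51.3% of the 39 proteasome promoters and in 32.5% of 27025 promoters of the same length; the median GC content was 57.3% in the proteasome promoters and 52.7% in all, and its part in the difference was not tested. The interferon-stimulated core was found in 10.3% against 3.5%. The 10.3% were 4 of 39 promoters, those of Psmb3, Psmd4, Psmd9 and Psme1, and this core had 0 matches in the windows of Psmb8, Psmb9 and Psmb10. TTCNNNGAA was found in 7.7% against 8.5%. The antioxidant response core TGACNNNGC, bound by NRF2 and NRF1, was found in 15.4% against 12.5%. The 4 motifs were searched separately on both strands and were allowed to overlap; a match describes letters only.

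The other inducible catalytic genes did not pass the test. Psmb8, the inducible beta5 subunit, was at 7.33, 8.20 and 8.15 in AhR null, 7.73, 8.46 and 7.11 in AhR-d and 7.26, 8.18 and 7.33 in control cells. The groups overlapped, with a log2 difference of AhR null from control of 0.30 (SE 0.37, 95% interval -0.48 to 1.09, adjusted p = 0.634); the difference between the Psmb8 and Psmb9 effects was not tested. Psmb10, the inducible beta2 subunit, was at 9.44, 9.07 and 9.20 in AhR null, 8.95, 8.82 and 8.72 in AhR-d and 9.30, 8.76 and 9.14 in control cells. All its AhR null values lay above all AhR-d values, by 0.41 on average (SE 0.20, adjusted p = 0.320), and overlapped the control values, with a difference of 0.17 (SE 0.20, 95% interval -0.25 to 0.60, adjusted p = 0.612).

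Of the PA28 activator genes, Psme2 was near control in AhR null cells, and the probes of Psme1 disagreed. Psme2, the beta chain, was at 8.22, 8.32 and 8.06 in AhR null, 8.21, 8.36 and 7.95 in AhR-d and 8.30, 8.59 and 7.72 in control cells, and the difference of AhR null from control was -0.001 (95% interval -0.53 to 0.53). Psme1, the alpha chain, was at 10.64, 10.95 and 10.33 in AhR null, 10.64, 11.04 and 10.72 in AhR-d and 10.72, 10.96 and 11.01 in control cells. Its groups overlapped, at -0.26 for AhR null against control (SE 0.19, adjusted p = 0.397). A further Psme1 probe gave the other sign, 0.63 (SE 0.23, adjusted p = 0.092 when every probe was tested), with all AhR null arrays above all control arrays. The used probe itself gave 0.25 in the deposited values, so no direction is given for Psme1.

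Of the 5 immunoproteasome genes, then, 1 rose and 4 did not pass in AhR null against control, with a median log2 difference of 0.17. In that comparison 12.4% of all features were called, 6.56% as higher, and 1 call among 5 genes cannot be told from that share. In AhR-d against control 0 of 5 passed, with a median of -0.03, where 0.336% of all features were called.

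**Figure D2:**
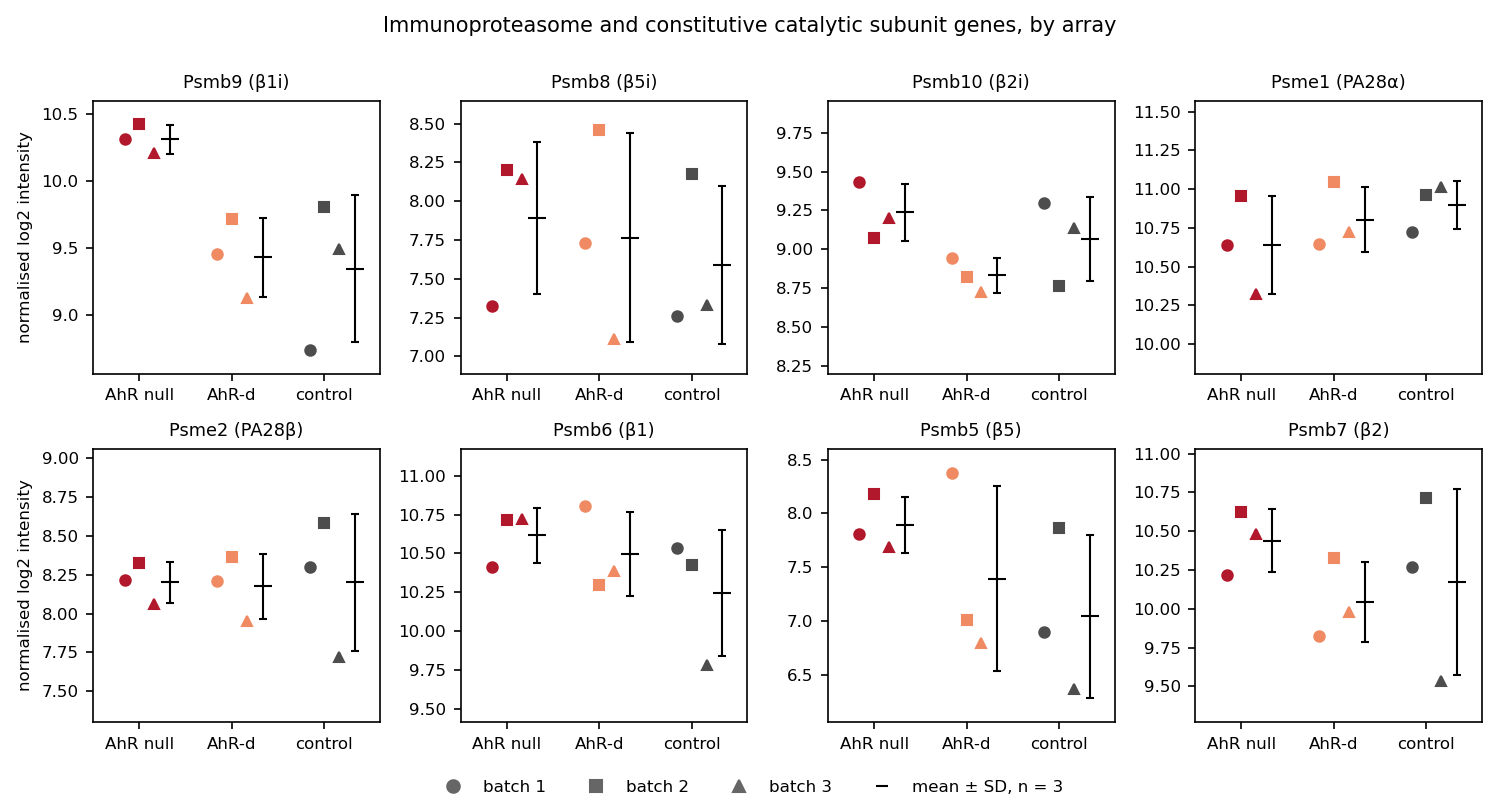
Normalised log2 intensity (y axis) of the 5 immunoproteasome genes and the 3 constitutive catalytic genes on each array, by genotype; symbols give the batch, and bars the mean ± SD of 3 arrays. On the probes used, Psmb9 is the one gene here whose AhR null arrays, at 10.20 to 10.42, all lie above the other 6, and each panel has its own y axis.

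Of the constitutive beta ring, 0 of 7 genes were called in any comparison. In AhR null against control 6 of 7 were positive, with a median of 0.27. All features had 12.4% called and 47.6% positive there, with a median of -0.03. The beta ring median was -0.05 in batch 1, 0.24 in batch 2 and 0.72 in batch 3. Psmb5, the chymotrypsin-like beta5 subunit, had the largest difference. It was at 7.81, 8.18 and 7.69 in AhR null, 8.38, 7.01 and 6.79 in AhR-d and 6.90, 7.86 and 6.37 in control cells. Its groups overlapped and its 0.85 (SE 0.42, 95% interval -0.06 to 1.76, adjusted p = 0.207) was 0.006 with array brightness as a covariate and 0.51 without control replicate 3.

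Psmb6, the beta1 subunit that Psmb9 replaces, was at 10.41, 10.72 and 10.72 in AhR null, 10.80, 10.30 and 10.39 in AhR-d and 10.54, 10.42 and 9.78 in control cells. These overlapped, at 0.37 for AhR null against control (SE 0.21, adjusted p = 0.283). Psmb4, a structural subunit of the ring, is named after its values were seen. It was at 11.84, 11.86 and 11.66 in AhR null, 11.77, 11.74 and 11.80 in AhR-d and 11.65, 11.46 and 11.19 in control cells. Every control array was below both other genotypes for Psmb4, on average by 0.35 for AhR null (SE 0.15, adjusted p = 0.150) and 0.34 for AhR-d (SE 0.15, adjusted p = 0.639). The lowest AhR null array, at 11.66, was nearly level with the highest control array, at 11.65. Over all 43 genes, groups did not overlap for 4 higher and 5 lower genes in AhR null against control, where 16.9% of features were higher and 17.4% lower without overlap; in AhR-d against control it was 2 and 4, against 5.06% and 5.44%, and in AhR null against AhR-d 4 and 1, against 11.1% and 12.4%.

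Exchange of catalytic subunits in the assembled core was not measured. At the RNA level, an inducible gene was set against the one it replaces by the within-array difference of their log2 levels. A shift common to an array cancels in this difference, which joins separate probes and is therefore compared only between arrays. For Psmb9 minus Psmb6 the within-array difference was -0.10, -0.30 and -0.52 in AhR null, -1.35, -0.58 and -1.26 in AhR-d and -1.79, -0.61 and -0.29 in control cells. AhR null arrays were above all AhR-d arrays and overlapped the controls. The mean difference was 0.76 against AhR-d (exact two-sided permutation p = 0.1, the smallest that 3 against 3 arrays allow) and 0.60 against control (exact p = 0.3). Psmb8 minus Psmb5 differed by -0.55 between AhR null and control (exact p = 0.3), and Psmb10 minus Psmb7 by -0.10 (exact p = 1), a value that rests on the Psmb7 probe used, since the probes of that gene disagreed. Over the 9 such tests the adjusted exact permutation p ran from 0.9 to 1.

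Psmb7, the trypsin-like beta2 subunit, showed how far the probes of a gene can part. Its brightest probe, used for the gene, was at 10.22, 10.62 and 10.48 in AhR null, 9.82, 10.33 and 9.98 in AhR-d and 10.27, 10.72 and 9.53 in control cells, a difference of AhR null from control of 0.27 (SE 0.26, adjusted p = 0.532). Its second probe was at 10.27, 10.23 and 10.33 in AhR null, 10.07, 9.58 and 9.27 in AhR-d and 9.34, 9.26 and 9.28 in control cells. That probe was higher in every AhR null array, by 0.98 (SE 0.20, adjusted p = 0.0056 with every probe tested). Its remaining probe went the other way, at 9.44, 9.35 and 9.22 in AhR null, 9.39, 9.83 and 9.94 in AhR-d and 9.84, 9.87 and 9.89 in control cells, a difference of -0.53 (SE 0.18, adjusted p = 0.077).

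Of 13 proteasome genes with several probes that passed the filter, 3 had probes of opposite sign in AhR null against control (Psmb7, Psmd12 and Psme1), and 5 had probes more than 0.5 log2 apart, which adds Psmc5 and Psmd10. Psmd10, also called gankyrin, is a chaperone of 19S assembly and is named after its values were seen. The probe used for it was at 9.84, 9.65 and 9.84 in AhR null, 9.39, 9.13 and 9.56 in AhR-d and 9.57, 9.09 and 9.74 in control cells, and it overlapped between AhR null and control (0.31, SE 0.20, adjusted p = 0.340). A dimmer probe was at 9.11, 9.58 and 9.47 in AhR null, 9.08, 8.77 and 8.55 in AhR-d and 8.37, 8.37 and 7.11 in control cells. With every probe tested it was called, at 1.44 (SE 0.30, adjusted p = 0.0076). The remaining Psmd10 probe overlapped between AhR null and control, at 0.23 (SE 0.23, adjusted p = 0.552 with every probe tested). Probes can lie on different transcripts of a gene; the place of each probe was not analysed here.

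**Figure D3:**
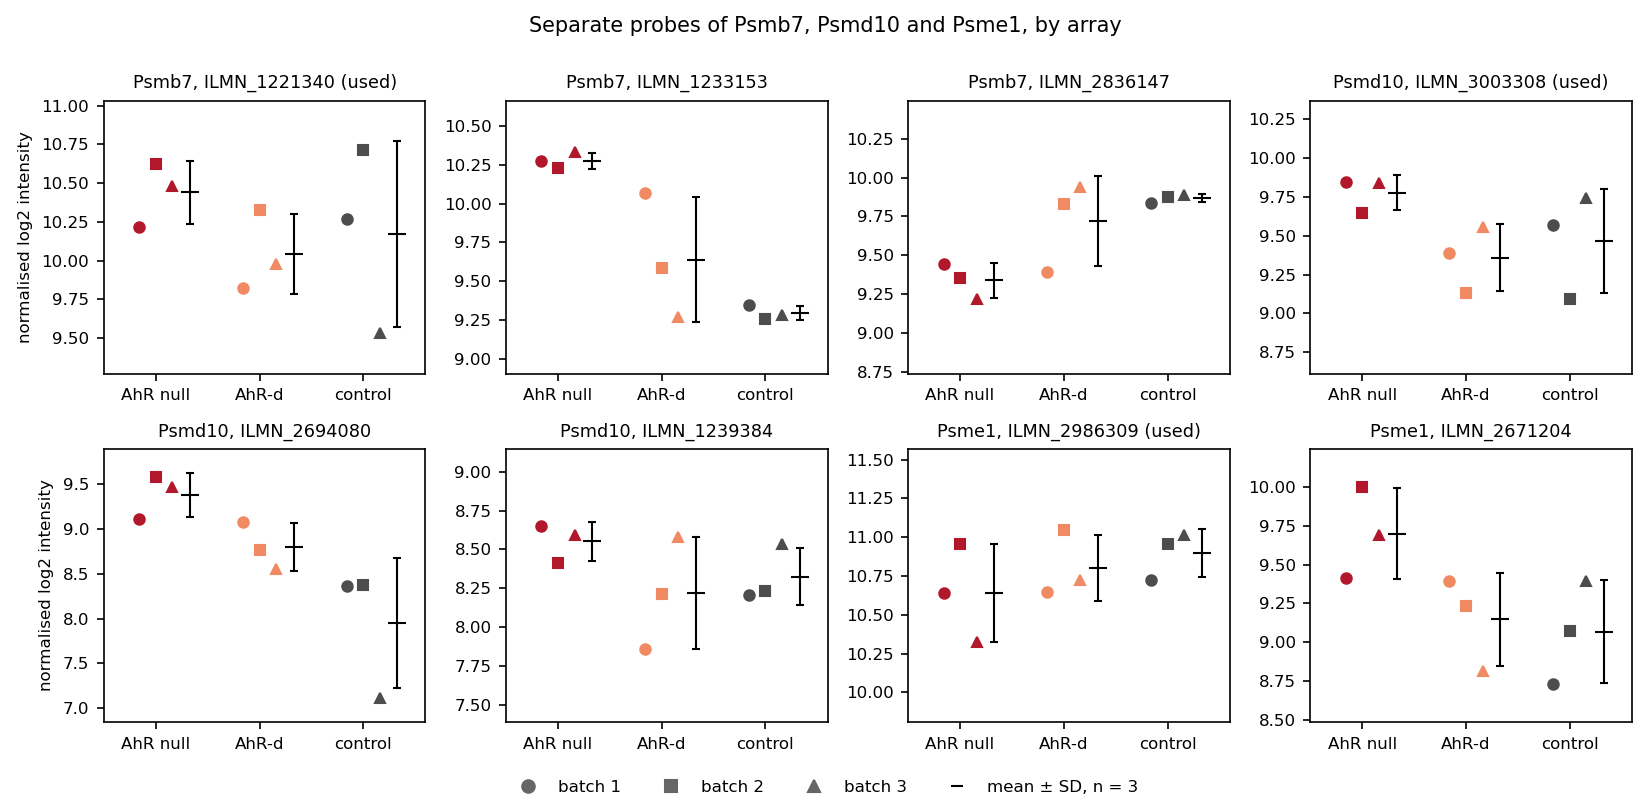
Normalised log2 intensity (y axis) of each probe that passed the filter for Psmb7, Psmd10 and Psme1 on each array, by genotype, with batches as symbols and mean ± SD of 3 arrays as bars. For Psmb7 one probe is higher in AhR null than in control cells by 0.98, another lower by 0.53, and the probe used overlaps.

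The alpha ring, which frames the gate of the core, had 4 of its 5 measured genes negative in AhR null against control in the normalisation used here. Their median was -0.27, and 0 of 5 passed the test, where 12.4% of all features were called and 47.6% were positive. In the deposited values at most 2 of all 43 genes were negative. Psma7 had the largest difference. It was at 10.78, 10.53 and 10.44 in AhR null, 10.41, 10.76 and 10.76 in AhR-d and 10.80, 10.78 and 11.42 in control cells. Its AhR null arrays lay just below all control arrays (-0.42, SE 0.20, adjusted p = 0.182), with -0.02, -0.25 and -0.98 within batches, and the value was 0.10 in the deposited table and 0.15 after median scaling. A further Psma7 probe, slightly dimmer, overlapped between AhR null and control (-0.10, SE 0.17, adjusted p = 0.754 with every probe tested). Psma3 and Psma5, named after their values were seen, did not overlap between AhR null and control, at -0.27 (SE 0.13, adjusted p = 0.188) and -0.32 (SE 0.15, adjusted p = 0.163). Psma2 was at 12.52, 12.56 and 12.80 in AhR null, 12.54, 12.42 and 12.93 in AhR-d and 12.76, 12.54 and 12.39 in control cells, which overlapped (0.07, SE 0.17). In AhR-d against control the alpha ring median was -0.13, and 0 of 5 passed, where 0.336% of all features were called. The difference between the rings was not tested.

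Of the 6 ATPases of the 19S base, which unfold substrates, 3 were positive and 3 negative in AhR null against control, and 0 passed. Among all features 47.6% were positive and 12.4% were called. Psmc3 had the largest difference. It was at 9.59, 9.39 and 9.53 in AhR null, 9.86, 9.005 and 9.21 in AhR-d and 9.03, 9.21 and 8.97 in control cells. AhR null arrays lay above all control arrays (0.43, SE 0.22, adjusted p = 0.208). Psmc6, named after its values were seen, was lower in every AhR-d than in every control array, by 0.53 (SE 0.22, unadjusted p = 0.032, adjusted p = 0.573 by limma).

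The 10 measured non-ATPase subunits of the 19S particle had 6 positive and 4 negative differences in AhR null against control, and 0 passed. Among all features 47.6% were positive and 12.4% were called. Without Psmd2 the differences of these subunits ran from -0.57 to 0.41. Psmd2, a base subunit that docks ubiquitin receptors, was at 5.76, 5.96 and 5.93 in AhR null, 5.94, 5.16 and 5.06 in AhR-d and 5.23, 5.30 and 5.33 in control cells, and was detected on 3 AhR null, 1 AhR-d and 0 control arrays. With no control array above detection and no bound above 1-fold, no difference is given for Psmd2. The gene remains in the counts of signs, of intervals and of groups without overlap, which rest on it to that extent. Psmd11, a scaffold of the 19S lid, is named after its values were seen. It was at 9.48, 9.14 and 9.31 in AhR null, 9.53, 9.21 and 10.10 in AhR-d and 9.76, 9.56 and 10.31 in control cells. AhR null arrays were below all controls for Psmd11, by -0.57 (SE 0.25, adjusted p = 0.150), with -0.28, -0.42 and -1.01 within batches, and it was called with batch as a block (adjusted p = 0.036). A dimmer Psmd11 probe overlapped between AhR null and control (-0.15, SE 0.26, adjusted p = 0.744 with every probe tested).

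Chaperones that assemble the particles did not pass either. The 3 chaperones of 19S assembly were all positive in AhR null against control, with a median of 0.31. Among all features 47.6% were positive and 12.4% were called. Psmd5 was at 7.52, 7.60 and 7.48 in AhR null, 7.27, 7.49 and 7.29 in AhR-d and 7.05, 7.61 and 6.77 in control cells, and its groups overlapped (0.39, SE 0.26, adjusted p = 0.344). Of the 3 measured chaperones of 20S assembly, Psmg1 to Psmg3, 1 was positive and 2 negative. Psmg3 had the largest difference, with 7.33, 6.69 and 6.68 in AhR null, 6.86, 6.98 and 7.23 in AhR-d and 7.32, 7.42 and 6.48 in control cells. These overlapped, at -0.18 (SE 0.31, adjusted p = 0.751).

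Of the alternative activators, Psme4, which encodes PA200, was at 9.29, 9.90 and 9.59 in AhR null, 9.17, 9.27 and 9.11 in AhR-d and 8.83, 8.98 and 9.62 in control cells. It was above every AhR-d array in AhR null cells (0.41, SE 0.23, adjusted p = 0.393) and overlapped control (0.45, SE 0.23, adjusted p = 0.214). Psme3, which encodes the nuclear PA28gamma and is named after its values were seen, gave -0.26 in AhR null against control (SE 0.18, adjusted p = 0.387). Psme3ip1, the gene of the PSME3 partner, was at 8.27, 8.89 and 8.42 in AhR null, 8.43, 9.13 and 8.99 in AhR-d and 9.23, 9.23 and 9.31 in control cells. Every AhR null array was below every control array, at -0.73 (SE 0.23, 95% interval -1.22 to -0.24, adjusted p = 0.052), and its second probe gave -0.68. It was called with batch as a block (adjusted p = 0.014), in which fit 3 of 43 genes were called in AhR null against control, Psmb9, Psme3ip1 and Psmd11, against 21.2% of all features. With the block, 1 of 43, Psmb9, was called in AhR null against AhR-d, against 6.74%.

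Genes that work with the proteasome but fall outside the symbol rule were read from lists chosen with earlier results known. Of 15 measured partners, 1 rose, 0 fell and 14 did not pass in AhR null against control, where 12.4% of all features were called; their median was 0.12, beside -0.03 over all features, and they ran from -1.19 to 0.80. With batch as a block 3 rose and 2 fell, where 21.2% of all features were called. Pomp, the maturation factor that the core needs for assembly and that immunoproteasome assembly is known to depend on, was at 11.18, 11.16 and 11.24 in AhR null, 10.79, 10.73 and 10.45 in AhR-d and 10.45, 10.37 and 10.36 in control cells. Every AhR null array was above every other array, and the lowest AhR-d array was level, at 2 decimals, with the highest control. Pomp rose by 0.80 in AhR null against control (SE 0.15, adjusted p = 0.0035), with 0.73, 0.79 and 0.87 within batches. The difference from AhR-d was 0.54 (SE 0.15, adjusted p = 0.085, called with batch as a block at 0.033), and AhR-d differed from control by 0.26 (SE 0.15, adjusted p = 0.751).

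Among the partners that did not pass, Zfand2a, an arsenite-inducible protein that binds the proteasome, was at 9.99, 9.76 and 9.75 in AhR null, 10.36, 10.56 and 9.81 in AhR-d and 10.94, 10.90 and 10.02 in control cells. All AhR null arrays were below all controls (-0.79, SE 0.25, adjusted p = 0.056, called with batch as a block at 0.0055). Sem1, the smallest lid subunit, was lower in every AhR null than in every control array (-0.40, SE 0.14, adjusted p = 0.076, called with the block at 0.039). Ubqln1, a shuttle for ubiquitylated proteins, was higher in every one (0.57, SE 0.20, adjusted p = 0.078, called with the block at 0.036), but -0.17 when its detected probes were averaged. Only 1 of 7 ubiquitin and E1 genes was measured: Uba7, the E1 enzyme of ISG15, at -0.33 (SE 0.16, adjusted p = 0.198).

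Of 10 measured genes that load peptides onto class I molecules, 1 rose, 0 fell and 9 did not pass in AhR null against control; all 10 were positive, with a median of 0.32. Over all features 6.56% were called as higher and 47.6% were positive, with a median of -0.03. With batch as a block 2 of the 10 were called, close to the 21.2% of all features called in that fit. B2m, the invariant chain of class I, was at 14.44, 14.48 and 14.33 in AhR null, 14.02, 13.69 and 13.54 in AhR-d and 13.41, 13.42 and 13.98 in control cells. All AhR null arrays were above the other 6, and B2m rose by 0.81 against control (SE 0.17, adjusted p = 0.0079). Against AhR-d it was 0.67 (SE 0.17, adjusted p = 0.065, called with the block at 0.024).

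The peptide transporter genes flank Psmb8. Tap1, whose promoter window overlaps that of Psmb9, was at 7.32, 6.78 and 6.94 in AhR null, 6.79, 6.45 and 6.74 in AhR-d and 5.68, 6.93 and 6.17 in control cells. It overlapped control in AhR null cells (0.75, SE 0.33, adjusted p = 0.152), with 1.64, -0.15 and 0.77 within batches, and was detected on 1 of 3 control arrays. Tap2 was at 11.44, 11.79 and 11.27 in AhR null, 11.31, 11.11 and 10.51 in AhR-d and 10.55, 11.35 and 9.96 in control cells. It differed by 0.88 (SE 0.30, adjusted p = 0.069) in AhR null against control, with 0.90, 0.44 and 1.31 within batches, and was called with batch as a block (adjusted p = 0.0036). H2-D1, a class I heavy chain, differed by 0.33 (SE 0.22, adjusted p = 0.348).

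Genes of the interferon response, the signal known to induce Psmb8, Psmb9 and Psmb10, went in both directions. Of 10 measured in AhR null against control, 1 rose, 1 fell and 8 did not pass; 3 were positive, with a median of -0.20. Over all features 12.4% were called and 47.6% were positive. Gbp3, an interferon-induced GTPase, was at 7.81, 7.79 and 7.30 in AhR null, 6.85, 6.91 and 6.35 in AhR-d and 5.94, 6.45 and 6.01 in control cells. Its AhR null arrays lay above the other 6, and it rose by 1.50 (SE 0.28, adjusted p = 0.0039); only 1 of the 3 control arrays detected it. Usp18, an ISG15 protease that dampens interferon receptor signalling, was at 7.87, 7.69 and 7.44 in AhR null, 8.93, 9.18 and 9.48 in AhR-d and 9.31, 9.76 and 9.87 in control cells. Every AhR null array was below the other 6, and Usp18 fell by 1.98 against control (SE 0.22, adjusted p = 5.9e-05). Cd274, the ligand of PD-1, gave -0.63 (SE 0.36, adjusted p = 0.278).

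**Figure D4:**
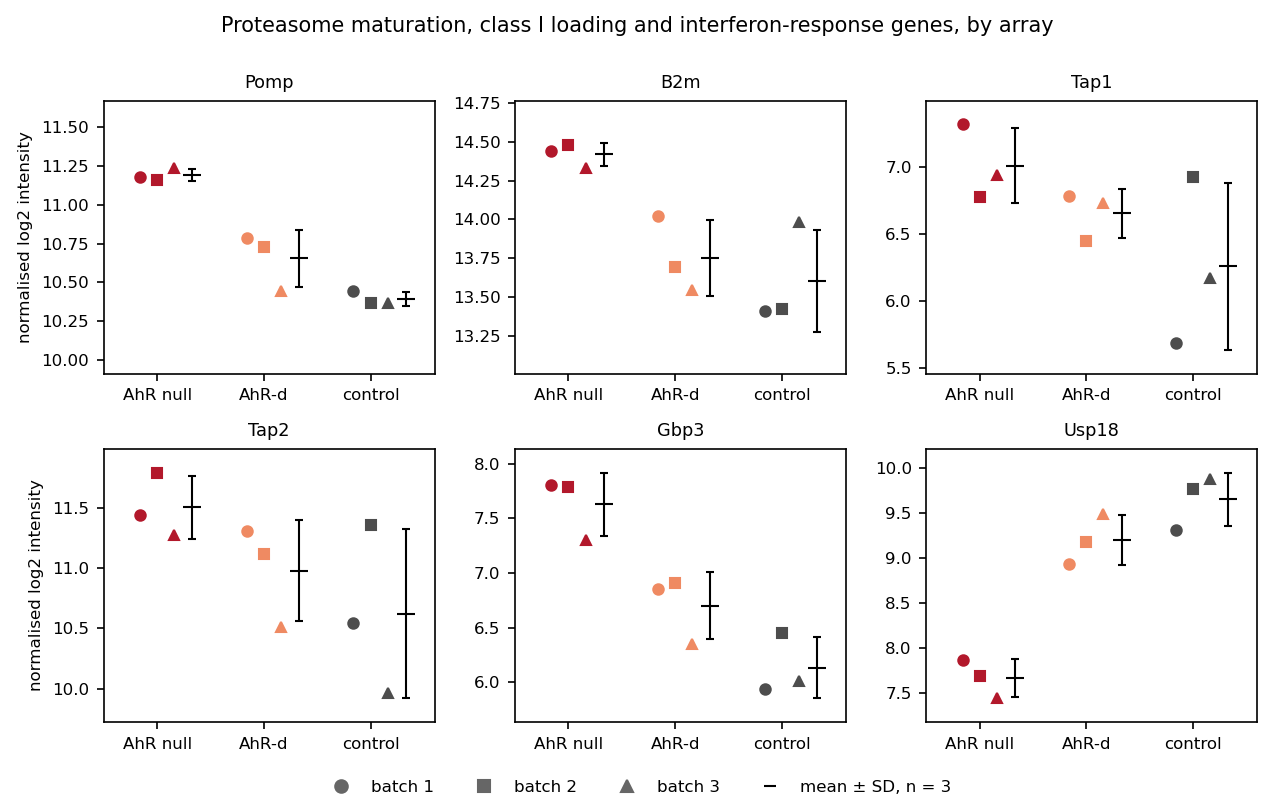
Normalised log2 intensity (y axis) of Pomp, B2m, Tap1, Tap2, Gbp3 and Usp18 on each array, by genotype, with batches as symbols and mean ± SD of 3 arrays as bars. Pomp, B2m and Gbp3 are higher and Usp18 lower on all 3 AhR null arrays than on the other 6, while Tap1 and Tap2 overlap control; each panel has its own y axis.

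With array brightness as a covariate the calls of Pomp (0.73, adjusted p = 0.057), B2m (0.65, adjusted p = 0.133) and Gbp3 (1.16, adjusted p = 0.082) were lost along with that of Psmb9; the covariate differed between the genotypes, and in that fit 3.81% of all features were called. In AhR-d against control 0 of 15 partners, 0 of 10 class I loading genes and 0 of 10 interferon-response genes were called by limma. Only 0.336% of all features were called in that comparison, so counts of 0 in lists of this size say little about them.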

How the data were processed

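Expression was measured in 9 samples of bone-marrow-derived mast cells, 3 per genotype, and grouped by the genotype in the labels. The deposited table holds linear signal intensity per probe with a detection p-value, per the file headers, and is not normalised; the submitters' processing notes name GenomeStudio. A deposited table of log2 values equals log2 of that intensity less 1 constant per array within 5.1e-05.

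From the intensities, background was corrected by normexp with detection p-values, 16 was added to each value, and quantile normalisation followed (neqc, limma 3.58.1, R 4.3.3). Probes with a detection p under 0.01 on at least 3 of 9 arrays were kept, 9777 of 25697. Names came from the platform annotation, with symbols updated through RefSeq (GRCm38.p6) for 23962 probes, which changed 0; 23978 probes had 1 symbol, 0 several and 1719 none. The probe with the highest mean stood for a gene. Tests covered 6864 genes with a name and 585 probes without one, 7449 in all. One limma fit of 3 genotype means (lmFit; eBayes, trend on mean level; 6 residual degrees of freedom) gave 3 comparisons, called at a p under 0.05 after Benjamini-Hochberg adjustment. Fold differences are log2. The number of arrays limits the precision.

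Psmd3, Psmg4, Psmf1, Psma8 and Psmb11 were not analysed here. The genes, lists and tests were chosen with earlier results of these data known. Genes named in full by rule were the immunoproteasome and constitutive catalytic genes, called genes, the largest change in each class, the genes of highest and lowest level, and up to 4 genes of smallest p from each related list; a gene outside this rule is marked where it is named with its values. Batches pair the arrays: the labels state shared batches, and deviations from the genotype means correlated at 0.11 to 0.36 in all 9 same-batch pairs and at -0.36 to 0.068 in 18 others. Alternatives were other scalings, background, filters, probe rules, a replicate block, robust variances, 2-group fits, array brightness as a covariate, and each array left out. The fit was tested on simulated data. Promoters were read with Python 3.11.15.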

Additional observations from a re-analysis of the deposited data

Results flagged for a closer look

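Usp18 differed between the effects of the AhR null and the AhR-d genotype: the difference AhR null minus AhR-d was -1.53 on the log2 scale (limma adjusted p = 0.0020), lower on 3 of 3 AhR null arrays, with -1.06, -1.49 and -2.04 within batches. The call was lost in the deposited values (-0.74, adjusted p = 0.169) and after median scaling on all probes (-1.10, adjusted p = 0.204).

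Oasl2, an interferon-induced protein of the oligoadenylate synthetase family, moved in opposite directions from control in every batch. It was 0.55, 1.24 and 0.33 higher in AhR null and -0.20, -0.58 and -0.56 from control in AhR-d cells. The gene was flagged for opposite signs in every batch, so that pattern is not a separate observation. Not every array detected Oasl2: only 8 did. Its lowest level, 5.64, was on the AhR-d array of the batch that gave -0.58, so that difference rests on its weakest signal. The difference between the effects, AhR null minus AhR-d, was 1.15 (SE 0.35, limma adjusted p = 0.116); it was called with batch as a block (adjusted p = 0.022), in the deposited values and after median scaling, and over the alternatives the adjusted p ran from 0.022 to 0.295. Both effects use the same control arrays.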

How the results depend on the processing

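In AhR null against control the count of called proteasome genes, 1, was 2 with scaling on probes detected on all arrays, with no background correction, with detection on all 9 arrays, with robust variances and with only the 2 groups, Psme3ip1 being added each time. Those settings called 12.3% to 13.5% of all features, beside 12.4% in the main fit. The count was 3 with a replicate block, which called 21.2% of all features. It was also 3 with every probe tested on its own (Psmb7, Psmd10 and Psmb9), beside 14% of features. With the mean of detected probes it was 3 (Psmb9, Psmd10 and Psme3ip1), beside 12.2%. With array brightness as a covariate it was 0, beside 3.81%. Leaving out 1 array gave 0 to 2, beside 6.75% to 13.4%. The count was 1 in the deposited values, after median scaling on all probes, with cyclic loess and with no detection filter. In that order 12.3%, 12.4%, 12.7% and 4.03% of all features were called. In AhR-d against control the count was 0 under every alternative, where 0.0671% to 1.58% of all features were called. In AhR null against AhR-d it was 1, Psmb9, with a replicate block and with only the 2 groups, 0 to 1 with 1 array left out (1 without control replicate 1) and 0 otherwise. The alternatives called 0.868% to 6.74% of all features there. Over 22 alternatives for 29 named genes in the 3 comparisons, 1851 of 1902 values kept their side of the threshold, 9 lost a call and 42 gained one; 102 changed sign with no call in either setting. In AhR null against AhR-d the block also called Gbp3 (adjusted p = 0.043), and changed no other named call beside those given. The cause of these changes was not tested.

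With 1 array left out, the RNA differences of inducible from constitutive genes ran, for Psmb8 minus Psmb5, from -0.78 to -0.31 in AhR null against control, -0.71 to 0.33 in AhR-d against control and -0.88 to 0.17 in AhR null against AhR-d. For Psmb9 minus Psmb6 they ran from 0.15 to 0.90, -0.61 to 0.14 and 0.62 to 1.00 in the same comparisons. For Psmb10 minus Psmb7 they ran from -0.52 to 0.26, -0.53 to 0.25 and -0.20 to 0.18; in AhR null against AhR-d this difference, 0.01, was -0.0874 in the deposited values and -0.0875 in log2 raw signal. Array number and, for Psmd2 and Psmd1, signal near background limit what can be seen.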
